A study of Mus musculus with 18 samples.

Results

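AMPA and kainate receptors are the ionotropic glutamate receptors that carry most fast excitation in the spinal cord. The present description covers the 9 genes that encode their subunits, Gria1 to Gria4 for AMPA receptors and Grik1 to Grik5 for kainate receptors, in sorted mouse motor neurons. The genes were chosen by symbol, and all 9 were found among the 27179 genes of the gene-level tables, with 21 of the 35729 transcripts of the transcript-level table. The rule that picks these genes uses no measured value, although the family was chosen with earlier results of these data known.

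A functional AMPA receptor is a tetramer of GluA subunits, the products of the Gria genes. GluA2, made from Gria2, keeps calcium out of the channel once its transcript has been edited, so receptors without it pass calcium. Each Gria pre-mRNA also carries a pair of alternative exons, flip and flop, that set how fast the channel desensitizes. Kainate receptors are tetramers as well. The products of Grik1, Grik2 and Grik3 (GluK1 to GluK3) form channels on their own, whereas those of Grik4 and Grik5 (GluK4 and GluK5) are high-affinity subunits that work only together with GluK1 to GluK3. Motor neurons receive glutamatergic input from descending, sensory and spinal premotor neurons through these receptors.

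RNA-Seq was carried out on 18 samples. At postnatal day 8 (P8) there were 9 wildtype samples, 3 each from the brachial, thoracic and lumbar cord, sorted by tdTomato from the Ai9 reporter after recombination by Chat-IRES-Cre. At the embryonic stage E12.5 there were 3 brachial samples labelled Hoxc8 MN[delta], in which Olig2-Cre removes Hoxc8 from motor neuron progenitors, and 6 wildtype brachial samples, all sorted by Mnx1-GFP. Chat and Mnx1 are also used by some other spinal neurons, and Olig2-Cre is active in every progenitor of its domain. The paper states that several cords were pooled per replicate of E12.5 Mnx1-GFP embryos and of P8 animals, so such a sample is no single animal. It states no pooling for the Hoxc8 comparison. The cord segments it gives for the Hoxc8 comparison begin and end further caudal than those for the comparison of stages.

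The deposited tables hold no value per sample. Their base mean, the mean over libraries of read counts divided by each library's size factor, is the authors' mean over all libraries of a table, and the values below therefore have no replicate error and no test. The base mean was available for 3 pools of libraries. The first is P8, over all 3 regions (the 3 regional tables gave the same base mean for every gene, with a largest relative difference of 0, so brachial, thoracic and lumbar levels cannot be told apart). The second, named the pooled table here, joins brachial libraries of P8 and of E12.5 and shares its P8 brachial libraries with the first. The third is E12.5, over Hoxc8 MN[delta] and wildtype libraries together, so the mutant and wildtype levels cannot be told apart either. The 3 were normalized separately, and so ratios between them are descriptions only. In bulk samples, fewer cells of a type and less RNA per cell cannot be told apart.

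The lowest base means recur at the value that a single read of a library adds, and this gave the size factors. At P8 there were 9 such values, between 0.0405 and 0.693, which correspond to size factors of 2.74 down to 0.160. The libraries thus differed widely in size factor, and their read totals are not known. At E12.5 there were 6, between 0.142 and 0.183, with size factors of 1.17 down to 0.910. The counting errors given below follow from these values and cover counting error only. For the pooled table, 8 values were recovered, which sets a minimum number of libraries, and no counting error is given for it.

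The labelled cell type was set against its markers. At P8 the genes of mature oligodendrocytes (10 of 10 listed, lowest base mean 543) took 43.7% of the summed base mean of all genes, and in the pooled table they took 23.6%. Mbp, encoding myelin basic protein, had a base mean of 6316220 at P8 and 4412860 in the pooled table. Of 7 motor neuron markers, 3 (Mnx1, Isl1 and Isl2) were under a base mean of 10 at P8, and Chat, the acetylcholine-synthesizing enzyme, was at 14.1. The other 3 were higher, with Slc18a3 at 23.5, Slc5a7, the choline transporter, at 165 and Prph, the intermediate filament peripherin, at 443. At E12.5 Mnx1 had a base mean of 3970 and Isl1 of 520. Of 7 inhibitory interneuron genes, 6 were under a base mean of 10 at P8, where Pax2 was listed at 0 and Gad1, the highest, was at 50.8, and at E12.5 Pax2 had 10167 and Lhx5 had 5046. Of 6 excitatory interneuron genes, 5 were under 10 at P8, and Slc17a6 was at 13.8. The part of glial or interneuron RNA in the levels of the 9 subunit genes was not tested.

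The flip and flop exons carry most of the AMPA receptor values that could be read at E12.5, as described further on, and are therefore shown here from the GENCODE vM21 transcripts on GRCm38. Each exon is 115 bases long. Capitals mark the bases at which an exon differs from the other exon of the same gene, 31 in Gria4 and 36 each in Gria1 and Gria2.
Gria4 flip, chr9:4427030-4427144, minus strand: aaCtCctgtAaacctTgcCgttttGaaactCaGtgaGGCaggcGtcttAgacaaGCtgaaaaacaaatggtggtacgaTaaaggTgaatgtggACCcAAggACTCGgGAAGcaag
Gria4 flop, chr9:4432773-4432887, minus strand: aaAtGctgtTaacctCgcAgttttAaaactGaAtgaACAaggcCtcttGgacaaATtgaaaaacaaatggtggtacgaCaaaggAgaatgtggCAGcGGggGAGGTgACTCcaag
Gria2 flip, chr3:80690404-80690518, minus strand: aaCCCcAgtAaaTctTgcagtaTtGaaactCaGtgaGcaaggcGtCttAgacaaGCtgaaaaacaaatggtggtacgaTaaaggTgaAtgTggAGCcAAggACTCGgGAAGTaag
Gria1 flop, chr11:57309769-57309883, plus strand: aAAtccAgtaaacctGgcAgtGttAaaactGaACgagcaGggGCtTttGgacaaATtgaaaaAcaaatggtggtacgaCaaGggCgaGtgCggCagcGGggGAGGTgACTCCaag
By the GENCODE matches, each of these exons lies in the coding sequence and belongs to only 1 transcript listed for its gene at E12.5.

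All 4 AMPA receptor genes were measured at P8 and had higher base means in the pooled table. Gria2, on chromosome 3 (80681450 to 80804227, minus strand), had a base mean of 784 at P8, with a counting error between 5.64 and 23.3. Gria4, on chromosome 9 (4417893 to 4796234, minus strand), was at 431, with a counting error between 4.18 and 17.3. Gria3, on the X chromosome (41400819 to 41678601, plus strand), was at 174 (counting error 2.66 to 11.0), and Gria1, on chromosome 11 (57011571 to 57330244, plus strand), was at 84.2 (counting error 1.85 to 7.64). In the pooled table the base means were 2933 for Gria2, 1382 for Gria1, 1287 for Gria4 and 473 for Gria3.

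The base means of the 5 kainate receptor genes spread over a narrower range at P8 than in the pooled table. At P8 the base mean was 190 for Grik2 (chromosome 10, 49093680 to 49790161, minus strand) and 185 for Grik5 (chromosome 7, 25009849 to 25075694, minus strand). It was 136 for Grik3 (chromosome 4, 125490259 to 125714173, plus strand), 80.5 for Grik4 (chromosome 9, 42518182 to 42945000, minus strand) and 41.5 for Grik1 (chromosome 16, 87895901 to 88290863, minus strand). In the pooled table Grik3 reached a base mean of 5328 and Grik5 3533, whereas Grik2 was at 509, Grik4 at 366.5 and Grik1 at 90.5.

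Longer transcripts collect more reads, so levels of different genes were compared per 1000 bases of the union of a gene's exons. At P8 Gria4 was highest at 68.4 normalized counts per 1000 bases, followed by Gria2 at 50.4 and Grik5 at 35.7. The next neighbours in the order, Gria3 at 17.7, Grik3 at 15.2, Grik2 at 14.4, Gria1 at 13.9 and Grik4 at 13.5, each differed from the next by less than 2 counting errors at the upper bound of that error. Grik1 was lowest at 6.18. In the pooled table Grik5 was highest at 684 normalized counts per 1000 bases and Grik3 next at 594. Gria1 at 229, Gria4 at 204 and Gria2 at 189 formed a middle group, and Grik4 at 61.5, Gria3 at 47.9, Grik2 at 38.4 and Grik1 at 13.5 were below it.

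The order among close genes depended on the length chosen, because the Gria2 union of 15548 bases holds exons of many annotated transcripts and the Grik5 union only 5168. With coding length, Gria2 came first at P8, at 296 normalized counts per 1000 bases against 159 for Gria4, and Grik3 came first in the pooled table, at 1933 against 1203 for Grik5. With exons of RefSeq-matched transcripts Gria2 also came first at P8, at 74.8 against 70.2 for Gria4. Under all 3 lengths, Gria2 and Gria4 were the top pair at P8, Grik3 and Grik5 the top pair in the pooled table, and Grik1 the lowest of the 9 in both.

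**Figure D1:**
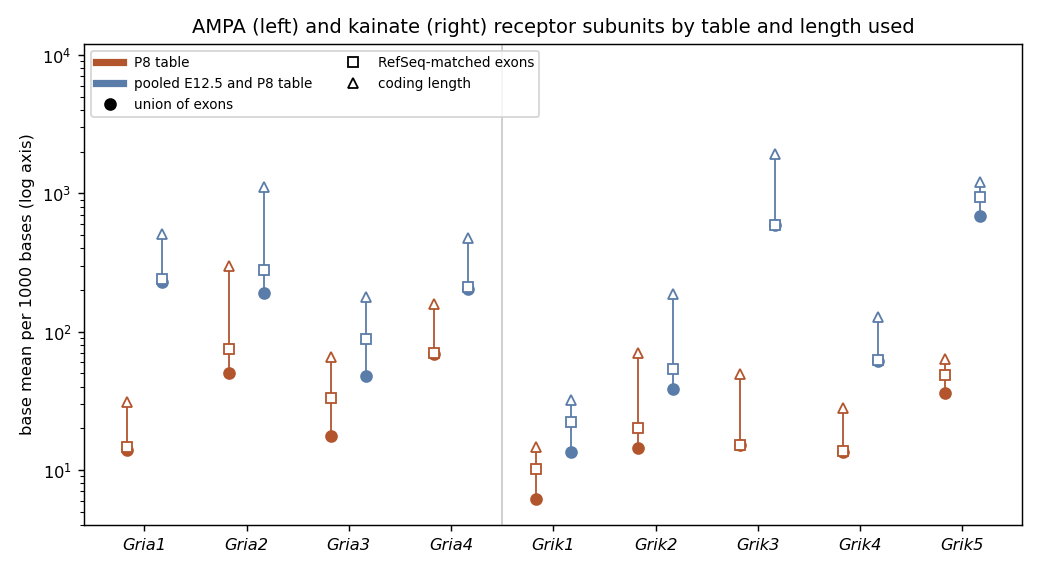
Base mean per 1000 bases (log axis) of each subunit gene in the P8 table (brown, left of each pair) and in the pooled table of E12.5 and P8 brachial libraries (blue), with 3 choices of gene length as symbols joined by a line. Gria2 and Gria4 are the highest genes at P8, and Grik3 and Grik5 the highest in the pooled table, under each length.

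The makeup of the AMPA family differed between the pools mainly by Gria1. Gria4 made up 45.5% of the summed per-length base mean of the 4 genes at P8 and 30.5% in the pooled table. Gria2 made up 33.5% at P8 and 28.2% in the pooled table, and Gria3 made up 11.8% and 7.16%. Gria1 was the only one of the 4 with a smaller part at P8, 9.26%, than in the pooled table, 34.2%. Genes other than Gria2 therefore made up 66.5% of the AMPA sum at P8 and 71.8% in the pooled table, values that rest on the long Gria2 union. With coding length, the part of Gria2 was 53.6% at P8 and 48.8% in the pooled table.

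In the kainate family the difference lay with Grik3. It made up 17.9% of the per-length sum of the 5 genes at P8 and 42.7% in the pooled table. Grik5 made up 42.1% at P8 and 49.2% in the pooled table. Grik2 made up 16.9% at P8 and 2.76% in the pooled table, Grik4 15.9% and 4.42%, and Grik1 7.28% and 0.968%. The high-affinity subunit genes, Grik4 and Grik5 as a pair, accounted for 57.9% of the kainate sum at P8 and 53.6% in the pooled table.

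**Figure D2:**
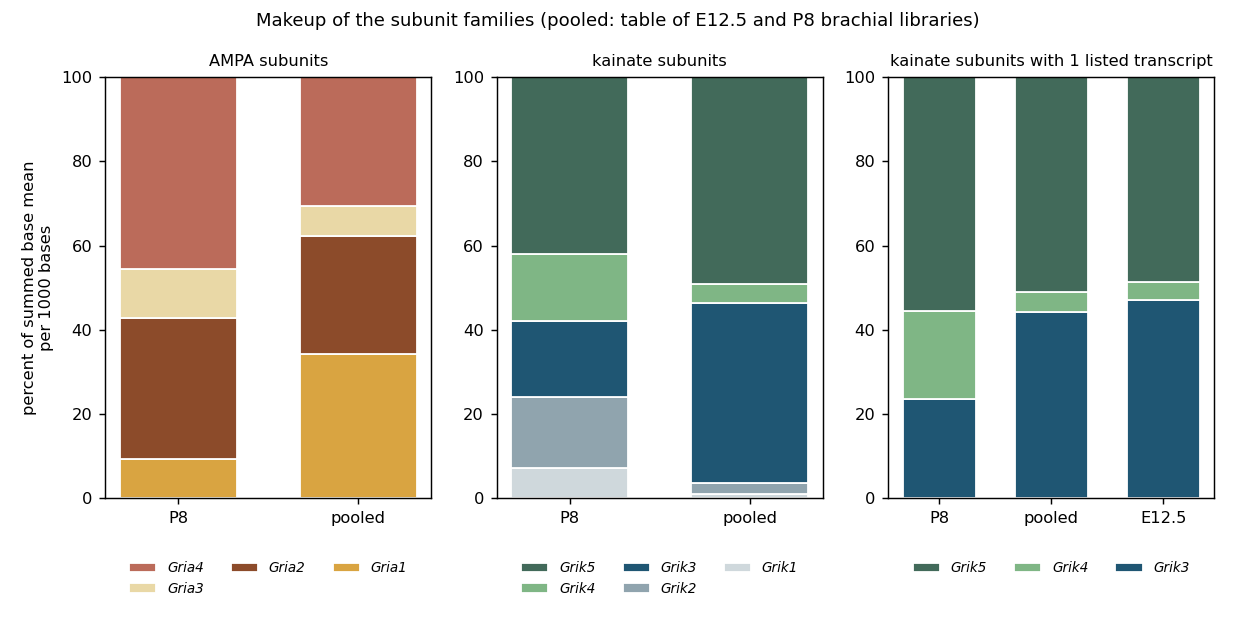
Percent of the summed base mean per 1000 bases held by each subunit gene in the AMPA family, the kainate family and the 3 kainate genes with 1 listed transcript; each column is a table. Gria1 and Grik3 hold larger parts in the pooled table (34.2% and 42.7%) than at P8 (9.26% and 17.9%), and Grik3 holds 47.0% of the 3-gene sum at E12.5.

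Across the 2 families, the kainate part of the 9-gene sum was 36.1% at P8 and 67.5% in the pooled table. The AMPA sum was 150 normalized counts per 1000 bases at P8 and 669 in the pooled table, and the kainate sum was 84.9 at P8 and 1391 in the pooled table. With other lengths the kainate part lay between 28.9% and 35.9% at P8 and between 60.6% and 67.1% in the pooled table, so its order between the pools held under each length tried.

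The place of the subunit genes among all genes at P8 depended on how levels were ranked. The 9 genes together had 117 of every 1000000 normalized counts at P8 and 712 in the pooled table. Among genes above 0, ranked per length, they stood at the 27.7th (Grik1) to 68.6th (Gria4) percentile at P8, with a median of 39.8. Ranked by base mean with no length, the median at P8 was 61.5, with Gria2 at the 87.4th percentile, and per length among genes at 10 or more it was 24.4. In the pooled table they stood at the 29.9th (Grik1) to 93.2nd (Grik5) percentile, with a median of 73.3. As a percent of the summed per-length level of 12 pan-neuronal genes, the 9 subunits came to 2.50% at P8 and 6.80% in the pooled table. This order turned round without the 3 neurofilament genes, to 31.2% at P8 and 10.1% in the pooled table. With the motor neuron markers in place of the pan-neuronal genes, the 9 subunits came to nearly equal parts, 88.9% at P8 and 90.3% in the pooled table. Nefh and Nefl, which encode neurofilament heavy and light chains, had base means of 17341 and 14103 at P8 and carried most of the pan-neuronal sum there.

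Ratios between the pools placed the subunit genes among all genes. The ratio of the pooled table to P8 had a median of 1.71 over the 13951 genes with base means of 10 or more in both, and of 3.74 over the 9 subunit genes, all of which lay above 1.71, as 50% of all genes do by construction. Grik3, at 39.1, was at the 98.4th percentile, Grik5, at 19.1, at the 96.5th and Gria1, at 16.4, at the 96.0th. The other 6 genes lay between 2.18 (Grik1, the 61.6th percentile) and 4.56 (Grik4, the 83.3rd percentile), with Gria2 at 3.74, Gria4 at 2.98, Gria3 at 2.71 and Grik2 at 2.67. The 12 pan-neuronal genes had a median ratio of 19.4, and 10 of them lay above 1.71. The 4 motor neuron markers with base means of 10 or more in both had a median of 7.21. Mnx1, Isl1 and Isl2, which that filter left out for P8 base means under 10, had ratios of 3358, 117 and 2010. Their P8 base means were 0.696, 2.67 and 0.0406. The last is the value of a single read, so the size of these ratios is not reliable. All 10 mature oligodendrocyte genes had ratios under 1, with a median of 0.552, and the 6 oligodendrocyte precursor genes had a median of 0.559. Oligodendrocyte precursors are themselves known to make AMPA and kainate receptor subunits, and their part in the P8 levels was not tested.

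**Figure D3:**
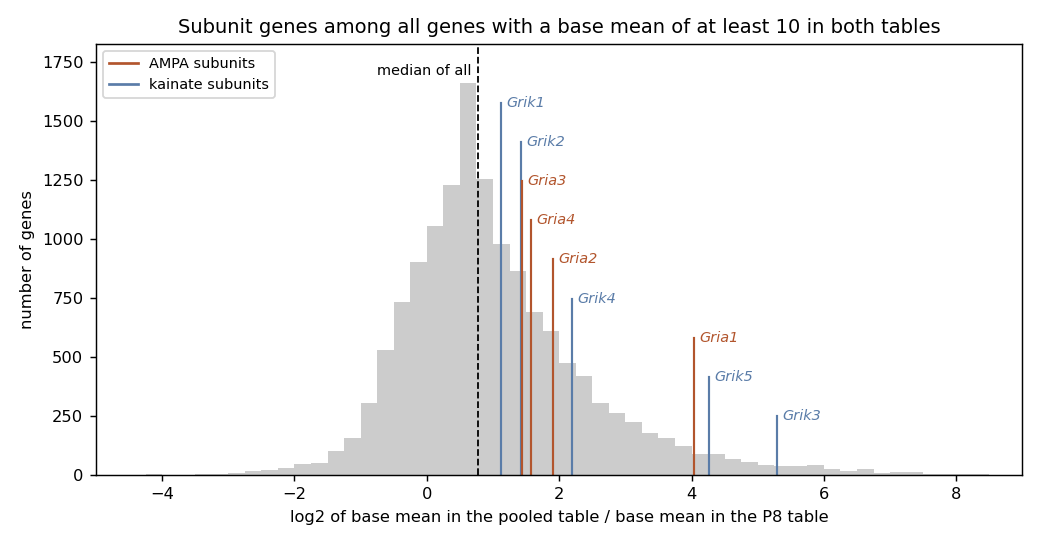
Number of genes (y axis) by the log2 ratio of the base mean in the pooled table to that at P8 (x axis), for the 13951 genes at 10 or above in both, with the subunit genes as vertical lines whose heights serve only to place the labels; the dashed line is the median of all genes. Gria1, Grik5 and Grik3 stand apart on the right, with ratios of 16.4, 19.1 and 39.1.

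At E12.5 the base means are given per transcript, and genes with several transcripts lost most of their reads. Among genes at 100 normalized counts or more in the pooled table, the E12.5 sum over transcripts divided by the pooled base mean had a median of 1.39 for the 7284 genes with 1 listed transcript, 0.0106 for the 2197 genes with 2, and 0.00608 for the 1001 genes with 3. By default the counter used, featureCounts, assigns no read that overlaps several features; the setting used here is not given in the sources used here. Grik3, Grik4 and Grik5 have 1 listed transcript each, and their quotients were 2.20, 1.90 and 1.98. Those of the other subunit genes were lower. Gria2 was at 0.159, Gria4 at 0.104, Grik1 at 0.0464, Gria1 at 0.0154 and Grik2 at 0.000720, and Gria3, with 4 listed transcripts, was listed at 0 in every one of them. The E12.5 values of these 6 genes are reads particular to a transcript and are no gene levels.

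**Figure D4:**
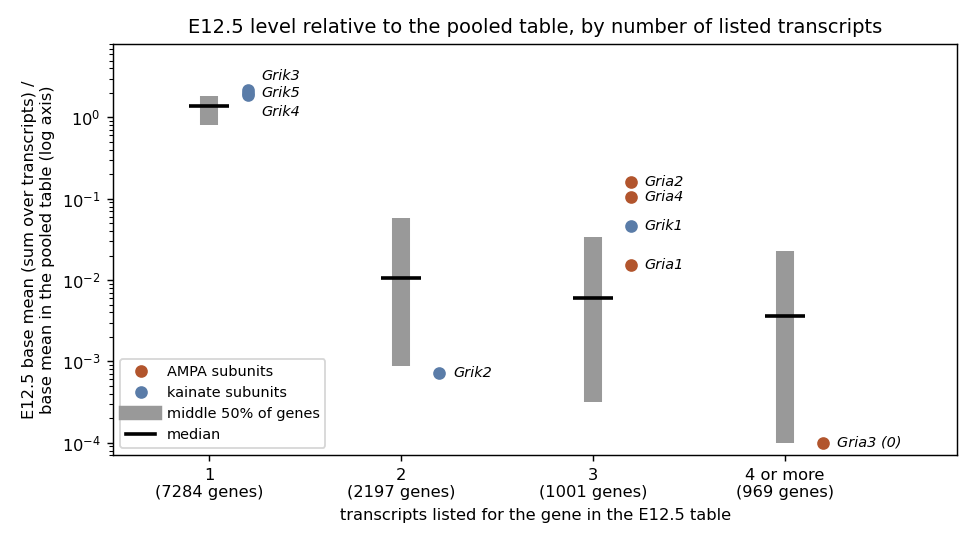
E12.5 base mean summed over transcripts divided by the base mean in the pooled table (log axis), for genes with 1, 2, 3 and 4 or more transcripts listed at E12.5; grey bars span the middle 50% of genes, black ticks are medians, and a value of 0 and a lower bar end under 0.0001 are drawn at 0.0001. Grik3, Grik4 and Grik5, with 1 transcript, lie near 2, while the other subunit genes lie at 0.159 or below.

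Grik3, Grik4 and Grik5 could thus be read in all 3 pools. These differ in cord segments, reporter and genotype as well as in stage, and the parts of these cannot be told apart. Grik3 had a base mean of 136 at P8, with a counting error of 2.35 to 9.72, and 5328 in the pooled table, against 11731 at E12.5, with a counting error of 40.8 to 46.4. Grik5 had 185 at P8 and 3533 in the pooled table, against 7000 at E12.5, with a counting error of 31.5 to 35.8. Grik4 had 80.5 at P8 and 366.5 in the pooled table, against 698 at E12.5, with a counting error of 9.96 to 11.3. Each of the 3 genes was lower at P8 than at E12.5 by many times the counting error, which leaves out the spread between samples and the separate normalization. The pooled table holds libraries of both stages, so values in between are no separate observation, and it may share wildtype libraries with the E12.5 table.

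Expressed as E12.5 divided by P8, the ratio was 86.1 for Grik3, 37.9 for Grik5 and 8.67 for Grik4, beside a median of 2.38 over 8029 single-transcript genes with base means of 10 or more in both. They stood at the 98.3rd, 96.1st and 82.2nd percentile of those genes. The 6 pan-neuronal genes with 1 listed transcript spread widely by the same ratio, with Tubb3, neuronal tubulin, at 129, Stmn2, a growth-associated tubulin-binding protein, at 70.0, Nefm at 13.9, Elavl3 at 10.6, Nefl at 0.893 and Nefh at 0.0129. The motor neuron genes Slc18a3, the vesicular acetylcholine transporter, Chat and Slc5a7 were at 34.0, 18.0 and 1.71. Mnx1, Isl2 and Isl1, also with 1 listed transcript but under 10 at P8, were above Grik3, at 5703, 2720 and 195. Their P8 base means of 0.696, 0.0406 and 2.67 leave the size of these ratios unreliable. The oligodendrocyte gene Mog was at 0.00629. Relative to the 6 pan-neuronal genes with 1 listed transcript, Grik3 stood at 0.166% of their summed per-length level at P8 against 3.70% at E12.5, Grik5 at 0.389% against 3.83%, and Grik4 at 0.147% against 0.331%. Without the neurofilament genes, an alternative chosen after seeing the data, Grik3 still stood lower at P8, at 2.97% against 4.43% at E12.5, but the order turned round for Grik5, at 6.98% against 4.59%, and for Grik4, at 2.64% against 0.397%.

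The balance of the 3 genes can be read without regard to the scale of a table. Grik3 divided by Grik5, as base means, was 0.738 at P8 and 1.51 in the pooled table, against 1.68 at E12.5. Grik5 divided by Grik4 was 2.29 at P8 and 9.64 in the pooled table, against 10.03 at E12.5. Of their per-length sum, Grik3 made up 23.6% at P8 and 44.3% in the pooled table, against 47.0% at E12.5, while Grik4 made up 21.0% and 4.59%, against 4.21%. Grik5 made up 55.5% at P8 and 51.1% in the pooled table, against 48.7% at E12.5, and so moved least. Ratios of base means keep their direction between tables whatever the lengths, whereas a part of the 3-gene sum need not. The part of Grik3 was lower at P8 than at E12.5 under each length tried.

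The flip and flop exons shown above gave AMPA values at E12.5. In the GENCODE matches all have 115 bases, apart from 3 further bases of its own that the Gria4 flip transcript has. Base means on them are compared between genes only under these matches. The annotation used for counting is not given in the sources used here. For Gria2 the match is uncertain, since its other listed transcripts share a match but had different base means. The Gria2 flip transcript had a base mean of 123, with a counting error of 4.19 to 4.75, from 673 to 868 reads. The Gria4 flip transcript had 21.6, with a counting error of 1.75 to 1.99, so that Gria2 flip stood at 5.72 times Gria4 flip (counting error 0.503 to 0.571). The Gria4 flop transcript had 17.1, with a counting error of 1.56 to 1.77. Flip exceeded flop in Gria4 by 4.44, with a counting error of the difference between 2.35 and 2.66, which is under 2 counting errors, and the flip exon held 55.7% of the reads of both. The Gria1 flop transcript had 20.9, with a counting error of 1.72 to 1.96, and exceeded Gria4 flop by 3.78 (counting error 2.33 to 2.64), again less than 2 counting errors.

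No flip level could be read for Gria1, whose flip exon belongs to 2 listed transcripts with base means of 0 and 0.328. The 2 further Gria2 transcripts, with 243.5 and 98.6, matched the same GENCODE flop transcript, and their reads could not be assigned to the flop exon. Values were next taken per 1000 bases that no other GENCODE-matched transcript of the gene holds. The Gria2 flip transcript had 1073 normalized counts per 1000 such bases, against 1307 for Grik3, 1860 for Grik5 and 119 for Grik4. The short Gria4 transcript, with a coding length of 1299 bases against 2706 for the flip and flop transcripts, had 160 per 1000 such bases, next to 183 for Gria4 flip and 149 for Gria4 flop. The Grik1 transcripts had at most 13.5 and the Grik2 transcripts at most 4.21. The other Grik2 transcript was listed at 0 over 6431 such bases, although Grik2 had a base mean of 509 in the pooled table. How well the GENCODE matches fit the annotation used for counting was not tested, and all values per 1000 such bases depend on it. Reads across a junction with a shared exon would be missing from such values, which makes those of short exons too low.

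Partner genes were read in the same way, by the ratio of the pooled table to P8. Auxiliary subunits of AMPA receptors set trafficking and gating. Their median ratio was 4.99 over the 14 of 17 with base means of 10 or more in both. Of the 14, 10 lay above the 1.71 of all genes, as 50% of all genes do by construction. Cacng3, Cacng7 and Cacng8, left out for P8 base means of 2.44, 9.16 and 0.779, had ratios of 23.5, 68.5 and 220. Cnih2, a cornichon that slows desensitization, was the highest AMPA auxiliary gene per length, at 249 normalized counts per 1000 bases at P8 and 2009 in the pooled table. Cacng2 (stargazin), named after its values were seen, had a ratio of 40.9, and Cnih3, likewise chosen, had 0.203, with a base mean of 124 at P8 and 25.3 in the pooled table. The kainate receptor auxiliary genes Neto1 and Neto2 had ratios of 2.33 and 7.75, and Neto2 was the higher per length, at 20.5 at P8 and 159 in the pooled table.

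Scaffold and trafficking genes had a median ratio of 4.01 over 7 of 8. Grip2, left out for a P8 base mean under 10, had a ratio of 107. Gripap1, a partner of the AMPA receptor scaffold GRIP, was highest per length at 141 at P8 and 366 in the pooled table. Secreted and presynaptic partners had a median of 7.15 over 9 of 10, led per length by Olfm1 (olfactomedin) at 226 at P8 and 1618 in the pooled table. Nptxr, left out in the same way, had a ratio of 2.12. The RNA editing list, of Adar, Adarb1 and Adarb2, had a median of 11.3 over 3 of 3. Adar was the highest of these per length, at 53.6 at P8 and 294 in the pooled table. Adarb1, named here because its product edits the Gria2 transcript, had a base mean of 32.3 at P8 and 365 in the pooled table, a ratio of 11.3 beside the 3.74 of Gria2. In none of these lists was the spread over samples known, and the differences between their medians were not tested.

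**Figure D5:**
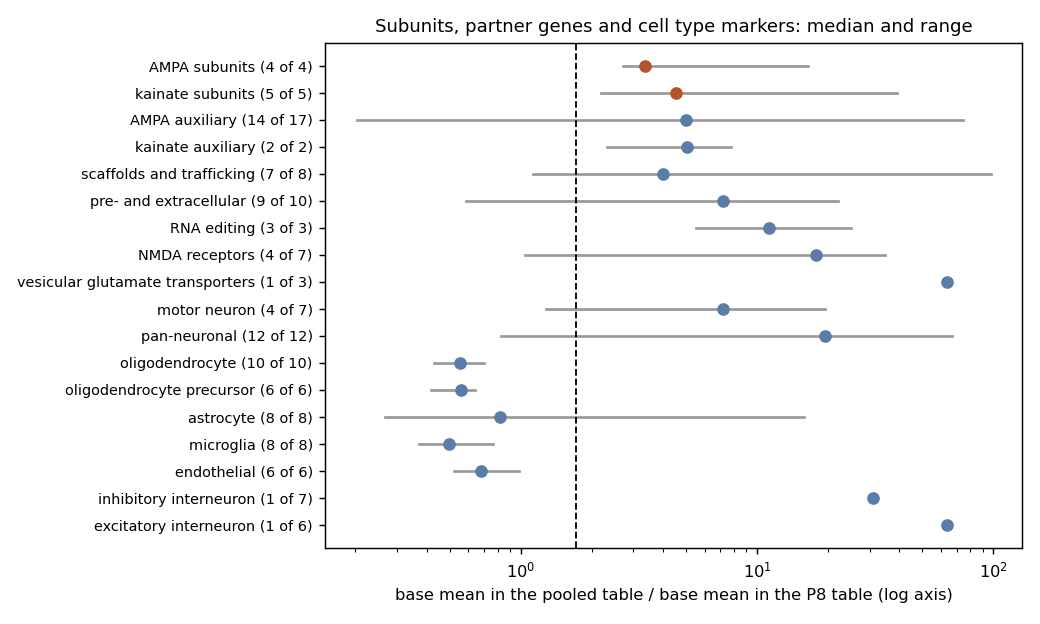
Ratio of the base mean in the pooled table to that at P8 (log axis) for the subunit families, partner gene lists and cell type marker lists; points are medians, lines span the lowest to the highest gene, brackets give how many genes of each list had a base mean of 10 or more in both tables, and the dashed line is the median of all such genes, 1.71. The subunit families have medians of 3.36 (AMPA) and 4.56 (kainate), the pan-neuronal list 19.4 and the oligodendrocyte list 0.552.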

How the data were processed

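RNA of motor neurons sorted by FACS was sequenced by the authors in 18 samples, grouped by stage, region and genotype as labelled. Unique reads were aligned to GRCm38 with HISAT, counted with featureCounts and compared with DESeq2 on Galaxy, with versions not given in the sources used here. The authors deposited 5 tables. The signal used here is the deposited base mean, the authors' mean of counts over size factors across all libraries of a table. The remaining columns of the deposited tables hold the authors' own log2 fold changes, standard errors, Wald statistics and p-values for their comparisons and were not used. These tables hold no value per sample, so no test, replicate error or count of called genes is given.

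Entrez IDs (93.0% matched) and RefSeq transcripts (99.2%) were matched to symbols through RefSeq GRCm38.p6, which also gave the gene positions. At E12.5 a gene is given by its transcript of highest base mean. Lengths are exon unions from GENCODE vM21, found for 79.5% of genes, and coding lengths came from the same annotation. Ratios between tables used genes with a base mean of 10 or more. The counting error of a base mean b lies between the square roots of b times the lowest and the highest single-read value. Single-read values were those recurring in at least 10 genes that are no sum of lower ones. Both steps were tested on simulated data. All 9 members were named, and of each partner list the gene highest per length. Others are said to be chosen after their values were seen, or were named because the filter on base means left them out. A planned list of related receptors is not reported here. Members and lists were chosen with earlier results of these data known. Alternatives were other lengths, other filters, other neuronal lists and the sum over transcripts. Python 3.11.15, numpy 2.4.6, pandas 2.3.3 and matplotlib 3.10.9 were used.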

Additional observations from a re-analysis of the deposited data

How the results depend on the processing

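No replicate spread is known, so a value was counted as moved when it differed at 3 significant digits. No paired analysis was possible because the tables hold no values per sample, and for the same reason no replicate could be left out. The thoracic and lumbar tables gave the base means of the brachial one. Coding length was taken from GENCODE, and protein features were not run. Alternatives follow as coding length, no length and RefSeq-matched exons, the last chosen after seeing the data. The Gria2 part of AMPA (33.5% at P8, 28.2% pooled) became 53.6%, 53.2% and 38.9% at P8 and 48.8%, 48.3% and 34.2% in the pooled table. The Grik3 part of kainate (17.9% and 42.7%) became 21.99%, 21.5% and 14.1% at P8 and 55.5%, 54.2% and 35.7% in the pooled table. The kainate part of all 9 (36.1% and 67.5%) became 28.9%, 30.04% and 35.9% at P8 and 60.6%, 61.8% and 67.1% in the pooled table. Grik3 among Grik3, Grik4 and Grik5 became 35.2%, 34.0% and 19.6% at P8, 59.2%, 57.7% and 37.4% in the pooled table, and 61.8%, 60.4% and 39.9% at E12.5 (from 47.0%). At E12.5, where 6 genes have transcript-specific reads only, the Gria2 part of AMPA was 45.9%, becoming 68.3%, 67.8% and 55.0%, or 54.8% with the sum over transcripts. The Grik3 part of kainate was 47.0%, becoming 61.8%, 60.4% and 39.9%. The kainate part of all 9 was 98.8%, becoming 98.1%, 98.2% and 98.7%, or 98.1% with the sum. The median percentile of the 9 (39.8 at P8, 73.3 pooled) became 24.4 and 66.7 among genes with a base mean of 10 or more, and 61.5 and 83.7 with no length. The 9 as a percent of the neuronal sum (2.50% at P8, 6.80% pooled) became 88.9% and 90.3% with motor neuron genes, 31.2% and 10.1% without neurofilaments, and 2.57% and 8.15% with single-transcript genes, the last chosen after seeing the data. Among these, only the list without neurofilaments turned an order between P8 and the pooled table round. The value of the Gria4 flop exon rested on between 94 and 120 reads.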

Other observations

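NMDA receptors are the third large family of ionotropic glutamate receptors. Of 7 NMDA receptor genes, 3 had a base mean under 10 at P8, and the highest per length was Grin3a, which encodes a glycine-binding subunit, at 13.3 normalized counts per 1000 bases at P8 and 13.9 in the pooled table, beside 13.5 for Grik4 and 6.18 for Grik1 at P8. Grin2d was the highest in the pooled table, at 51.2, with 1.94 at P8. The ratio of the pooled table to P8 had a median of 17.7 over the 4 genes with base means of 10 or more in both. The genes left out, Grin2a, Grin2c and Grin3b, had ratios of 3.94, 32.1 and 30.9.

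Genes that load glutamate into vesicles were low at P8. Slc17a6, the vesicular glutamate transporter of most spinal excitatory neurons, had a base mean of 13.8 at P8 against 2090 at E12.5, and Slc17a7 was listed at 0 at P8 and had 8.61 at E12.5. Whether Slc17a6 reads at E12.5 come from motor neurons or from other sorted cells was not tested.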
